A study of Mus musculus with 20 samples.

Results

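The 9 genes described here encode a TGF-beta ligand (Tgfb1), its receptor chains (Tgfbr1, Tgfbr2), the Smad proteins that carry its signal (Smad2, Smad3, Smad4), an inhibitory Smad (Smad7) and a pair of Smad corepressors (Ski, Skil). They were chosen by gene symbol, and all 9 were present among the 12975 genes of the sorted-cell table, 13766 of the Bcl6 table, 13624 of the Prdm1 table and 25036 of the Tcf7 table. The cells were TCRαβ+CD8αα+ intraepithelial lymphocytes, T cells of the gut lining in mice, sorted from the small intestine of unchallenged animals and profiled by bulk RNA-seq. Cells positive for both RFP and CD160 (RFP+ cells, 3 libraries) were set against cells negative for both (RFP- cells, 3 libraries), all from mice of genotype Bcl6-RFP/RFP, whose red fluorescent protein reports Bcl6. Total CD8αα+ cells of Bcl6fl/fl Cd8cre, Prdm1fl/fl Cd8cre and Tcf7fl/fl Cd8cre mice (2 libraries each) were set against cells of Bcl6fl/fl, Prdm1fl/fl and Tcf7fl/fl littermates (2 libraries each). Another 2 libraries, titled LI, carry the genotype Bcl6-RFP/RFP and the tissue small intestine, and the labels put them in no group. Every knockout carries Cd8cre, a Cre recombinase under Cd8 control, and no littermate does, so what Cd8cre does by itself and what the deletion does cannot be told apart. The labels give no ages, and they do not say that libraries of a group came from separate animals, so the p-values measure the spread between these libraries, which may be technical.

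TGF-beta is secreted in a latent form, and once released it is bound by TGFBR2, which recruits and activates TGFBR1. TGFBR1 phosphorylates SMAD2 and SMAD3, which join SMAD4 and act on genes in the nucleus, while SMAD7 blocks the receptor and SKI and SnoN (encoded by Skil) turn Smad-bound genes down. In mice the pathway is needed for the development of TCRαβ+CD8αα+ intraepithelial lymphocytes, and it induces CD103, the integrin that tethers these cells to the epithelium. The factors tested are transcription regulators, BCL6, the Prdm1 product BLIMP1 and the Tcf7 product TCF1. The question is how the 9 genes stand in cells that report Bcl6 and in cells of mice with a floxed gene of each factor and Cd8cre.

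On GRCm38 (GENCODE vM21), Smad3 lies on the minus strand of chromosome 9 (63646767 to 63757994) and Ski on the minus strand of chromosome 4 (155154075 to 155222592). Tgfbr2 is also on chromosome 9, Tgfbr1 on chromosome 4, Tgfb1 on chromosome 7 and Skil on chromosome 3. No exon of another annotated gene overlaps an exon of a member. The sequence just upstream of the annotated start is shown for Smad3 and for Ski, the members with the largest rise and the largest fall between the sorted populations (RefSeq, GRCm38.p6, which had a promoter entry for 5 of the 9 members). Both are written 5′ to 3′ on the strand of the gene, chr9:63757995-63758244 for Smad3 and chr4:155222593-155222785 for Ski, with capitals at GAAAG, the core of the BLIMP1 motif, and CTTTG, the core of the TCF and LEF motif, searched on both strands.
Smad3: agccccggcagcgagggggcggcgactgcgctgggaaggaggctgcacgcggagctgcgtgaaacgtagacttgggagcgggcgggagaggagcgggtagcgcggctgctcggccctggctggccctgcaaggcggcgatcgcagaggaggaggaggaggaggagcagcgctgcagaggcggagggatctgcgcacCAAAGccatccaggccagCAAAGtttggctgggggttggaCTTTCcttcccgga
Ski: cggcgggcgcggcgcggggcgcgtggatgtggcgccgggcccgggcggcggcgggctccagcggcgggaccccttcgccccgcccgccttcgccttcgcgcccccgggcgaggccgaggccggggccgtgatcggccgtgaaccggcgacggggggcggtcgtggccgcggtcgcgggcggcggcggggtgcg
The 250 bases of Smad3 hold GAAAG 1 time, read on the opposite strand as CTTTC from 14 to 10 bases before the start, and CTTTG 2 times, read as CAAAG from 54 to 50 and from 36 to 32 bases before it. The 193 bases of Ski hold neither run of letters. GAAAG occurred in 51.4% and CTTTG in 48.8% of 27025 mouse promoter windows of 250 bases, and in 43.8% and 41.6% of windows of 193 bases. These are matches of letters only, and binding was not measured.

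Depth, estimated from the value of 1 read in each library and given in units of 1000000 reads, was 14.5 to 16.9 for RFP+ and 16.5 to 17.4 for RFP- cells. Bcl6 libraries had 22.1 to 23.0 such units, Prdm1 libraries 30.1 to 38.4 and Tcf7 libraries 41.0 to 48.2. Prdm1 stood at 639.9 and 362 scaled reads in Prdm1 knockout libraries, against 6092 and 5117 in littermates. Tcf7 stood at 7757 and 7993 in Tcf7 knockout libraries, against 15430.3 and 15606 in littermates. Bcl6 was at 0.550 and 0.638 FPKM (83 and 97 reads) in Bcl6 knockout libraries, against 0.772 and 0.735 FPKM (119 and 109 reads) in littermates, under the 1 FPKM asked of a tested gene. The knockout to littermate ratio of the means was 0.0894 for Prdm1, 0.507 for Tcf7 and 0.788 for Bcl6, so much of the Tcf7 and most of the Bcl6 signal was still present. Values are per gene, not per exon, and do not show which part of a transcript remained, so the Bcl6 knockout labels are not checked by them. Cd8a and Itgae (CD103) were abundant in every library, and Cd8b1, which marks CD8αβ cells, was at 0.720 to 2.16 FPKM in the RFP and Bcl6 tables. In scaled reads Cd8b1 was at 135 and 27.0 in Prdm1 knockout libraries, against 98.3 and 8.63 in littermates. In Tcf7 knockout libraries it was at 303 and 263, against 247 and 136 in littermates. Of the 7 markers listed for the labelled cells 4 were found under their symbols in the RFP table, and the 4 constant genes of γδ receptors listed as markers were not analysed here. In bulk RNA, fewer cells of a type and less RNA per cell cannot be told apart.

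Between the sorted populations, 4 of the 9 members differed in the limma fit over 9717 genes at an adjusted p under 0.05. Smad3 and Smad7 were higher in RFP+ cells, and Ski and, less securely, Skil were lower. The share of all genes tested that differed was 38%, so 4 of 9 is close to the background of this comparison, and 1591 genes were higher (16.4%) and 2098 lower (21.6%) in RFP+ cells. With library totals rescaled the split became 3300 higher and 1171 lower, with quantile normalization 2014 and 1747, and centred on well expressed genes 2268 and 1568. Total rescaling moved the median of all genes by 0.14 on the log2 scale, the other scalings by less than 0.1. Values are FPKM, fragments scaled to transcript length and library depth, and log2 fold changes are of FPKM + 1, which understates changes of low genes. The median log2 fold change was -0.025 over the members and -0.025 over all genes tested.

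Tgfb1 encodes the main TGF-beta ligand of immune cells. It stood at 25.5, 24.6 and 29.2 FPKM in RFP+ libraries, against 35.2, 29.998 and 28.8 FPKM in RFP- libraries. The groups overlapped, and the difference did not pass (log2 fold change -0.24, 95% interval -0.45 to -0.028, limma adjusted p = 0.073). Without RFP+ library 3 the same comparison gave a log2 fold change of -0.31 at an adjusted p of 0.035.

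Both receptor chains were close between the populations. Tgfbr1, the chain that carries the Smad kinase, was at 13.9, 14.2 and 13.7 FPKM in RFP+ libraries, against 13.4, 14.6 and 14.7 FPKM in RFP- libraries. Tgfbr2, the chain that binds the ligand, was at 35.3, 35.9 and 40.1 FPKM in RFP+ libraries, against 40.9, 37.2 and 36.0 FPKM in RFP- libraries. Both overlapped between the groups. Their log2 fold changes were -0.025 (95% interval -0.15 to 0.10) for Tgfbr1 and -0.035 (95% interval -0.19 to 0.13) for Tgfbr2, with limma adjusted p = 0.75 and 0.72, and the sign of both turned under 3 other scalings.

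Among the signal-carrying Smads, Smad3 parted the populations and Smad2 and Smad4 did not. Smad3 stood at 9.05, 6.90 and 8.14 FPKM in RFP+ libraries, from 751, 556 and 762 reads, against 1.13, 1.22 and 1.01 FPKM in RFP- libraries, from 103, 113 and 97 reads. The lowest RFP+ library lay far above the highest RFP- library. The means were 8.03 ± 1.08 FPKM in RFP+ cells and 1.12 ± 0.108 FPKM in RFP- cells (SD, n = 3 each), a ratio of 7.18, and limma gave a log2 fold change of 2.09 ± 0.10 (SE, adjusted p = 3.96e-06). It ran from 2.00 to 2.73 over 14 alternative settings and passed in all 14.

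Smad2, the other receptor-activated Smad of this pathway, lies with Smad4 and Smad7 on chromosome 18. It was at 7.60, 6.87 and 8.05 FPKM in RFP+ libraries, against 7.92, 7.55 and 6.73 FPKM in RFP- libraries. The groups overlapped, with a log2 fold change of 0.019 (95% interval -0.17 to 0.20, limma adjusted p = 0.87). Smad4, the partner shared by all signal-carrying Smads, was at 22.3, 20.8 and 20.7 FPKM in RFP+ libraries, against 22.9, 21.5 and 20.6 FPKM in RFP- libraries, and these overlapped too (log2 fold change -0.023, 95% interval -0.16 to 0.11, limma adjusted p = 0.78). Within a library, the Smad3 level divided by the Smad2 level, both per transcript length, was therefore 1.19, 1.01 and 1.01 in RFP+ cells, against 0.142, 0.162 and 0.150 in RFP- cells. RFP+ cells held about equal levels of both, and RFP- cells held mostly Smad2.

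Smad7, the inhibitory Smad that TGF-beta signals themselves induce, stood at 53.3, 54.6 and 52.2 FPKM in RFP+ libraries, against 34.3, 37.8 and 40.6 FPKM in RFP- libraries. All RFP+ libraries were above all RFP- libraries. The means were 53.4 ± 1.18 FPKM in RFP+ cells and 37.6 ± 3.13 FPKM in RFP- cells (SD, n = 3 each), with a log2 fold change of 0.50 ± 0.065 (SE, limma adjusted p = 6.63e-04). It passed in all 14 alternative settings, from 0.44 to 0.66.

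Both corepressors were lower in RFP+ cells, by different amounts. Ski, the founding member of the family, stood at 18.1, 16.9 and 18.7 FPKM in RFP+ libraries, against 31.6, 28.7 and 28.4 FPKM in RFP- libraries, with no overlap. The means were 17.9 ± 0.952 FPKM in RFP+ cells and 29.6 ± 1.77 FPKM in RFP- cells (SD, n = 3 each), and limma gave a log2 fold change of -0.69 ± 0.063 (SE, adjusted p = 9.99e-05). It passed in all 14 alternatives, from -0.73 to -0.54. Skil stood at 38.9, 33.3 and 37.4 FPKM in RFP+ libraries, against 46.2, 41.1 and 41.6 FPKM in RFP- libraries. The groups did not overlap, but the gap was narrow, and the log2 fold change of -0.23 ± 0.073 (SE) passed by little (limma adjusted p = 0.040). Skil kept its sign and passed in only 4 of 14 alternatives. With library totals rescaled it was -0.071 (limma adjusted p = 0.40), and it missed the threshold without RFP+ library 2 (adjusted p = 0.11), without RFP+ library 3 (adjusted p = 0.062) and without any 1 RFP- library (adjusted p = 0.096, 0.058 and 0.065 for libraries 1, 2 and 3). The level of Ski divided by that of Skil in the same library was 0.465, 0.506 and 0.501 in RFP+ cells, against 0.685, 0.700 and 0.681 in RFP- cells.

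**Figure D1:**
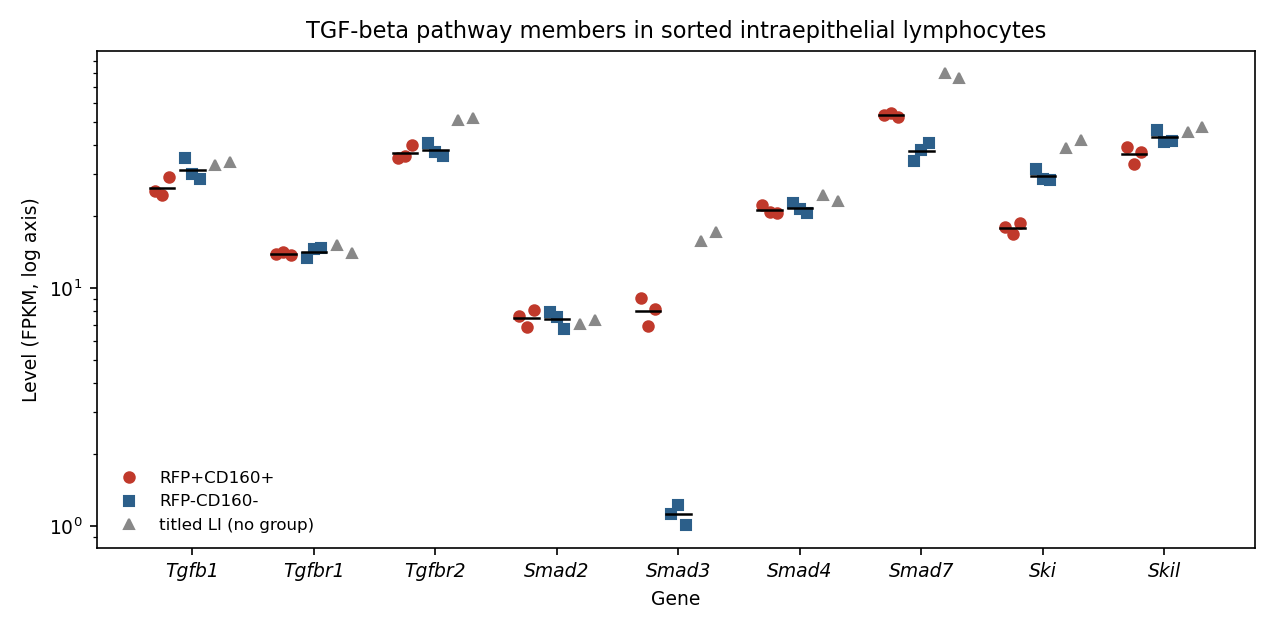
FPKM of the 9 members (log axis) in each RFP+CD160+ library (red circles), each RFP-CD160- library (blue squares) and each library titled LI (grey triangles), with a line at each group mean. Smad3 lies at 6.90 to 9.05 FPKM for RFP+ cells, above the 1.01 to 1.22 FPKM of RFP- cells, while Tgfbr1, Tgfbr2, Smad2 and Smad4 overlap.

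By level, Smad7 was the most abundant member in RFP+ cells, above Tgfbr2 and Skil, whose libraries overlapped, then Tgfb1, Smad4, Ski and Tgfbr1, with Smad3 and Smad2 lowest and overlapping. In RFP- cells Skil was highest (42.9 FPKM), ahead of Tgfbr2 (38.0) and Smad7 (37.6), which overlapped, as did Tgfb1 (31.4) and Ski (29.6). Smad4 (21.7), Tgfbr1 (14.2) and Smad2 (7.40) followed, and Smad3 was last at 1.12 FPKM. In 4 of the 9 genes the libraries of the groups did not overlap, a share below the 51.9% of all genes tested.

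Other genes of the pathway were read as lists. Of 13 genes of ligands and their activation 5 were tested and all of these were called, 2 higher and 3 lower in RFP+ cells, with a median log2 fold change of -0.43. Over all genes tested the share called was 38%, and the list is short. Tgfb3, another ligand gene, fell to 24.6 ± 1.61 FPKM in RFP+ cells, against 60.6 ± 1.68 in RFP- cells (log2 fold change -1.27, limma adjusted p = 3.12e-06). Itgav, a chain of the integrins that release the ligand, averaged 10.3 in RFP+ and 18.0 FPKM in RFP- cells (log2 fold change -0.75, adjusted p = 0.0011), and Furin, a protease that cuts the precursor, 52.1 in RFP+ and 70.2 FPKM in RFP- cells (log2 fold change -0.43, adjusted p = 0.0027). Ltbp4, which binds latent TGF-beta, averaged 2.88 in RFP+ and 1.02 FPKM in RFP- cells (log2 fold change 0.94, adjusted p = 2.00e-04). Of 4 tested receptor and coreceptor genes among 10, Bambi, a pseudoreceptor, was higher (1.84 in RFP+ and 1.05 FPKM in RFP- cells, log2 fold change 0.47, limma adjusted p = 0.0097) and the coreceptor gene Tgfbr3 lower (2.05 in RFP+ and 3.06 FPKM in RFP- cells, log2 fold change -0.40, adjusted p = 0.040). The Tgfbr3 call was lost in at least 1 scaling (highest adjusted p = 0.12), and the receptor list had 3 higher and up to 1 lower under the scalings.

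Of 26 tested genes of other Smads and Smad regulators 9 were higher and 2 lower in RFP+ cells, with a median log2 fold change of 0.080, against -0.025 over all genes. The share called in either direction, 11 of 26, is close to the 38% of all genes. Smurf2, a ubiquitin ligase that SMAD7 brings to the receptor, averaged 39.3 ± 3.05 FPKM in RFP+ and 20.4 ± 0.580 FPKM in RFP- cells (log2 fold change 0.91, limma adjusted p = 2.50e-05). Sik1, a kinase that takes part in removing TGFBR1, averaged 70.8 ± 12.6 in RFP+ and 29.5 ± 2.30 FPKM in RFP- cells (log2 fold change 1.22, adjusted p = 1.79e-04). Ppp1r15a, whose protein GADD34 helps to dephosphorylate TGFBR1, averaged 119 ± 4.02 in RFP+ and 78.9 ± 3.50 FPKM in RFP- cells (log2 fold change 0.59, adjusted p = 1.04e-04). Ldlrad4, an inhibitor of Smad phosphorylation, averaged 26.1 ± 0.699 in RFP+ and 12.0 ± 1.37 FPKM in RFP- cells (log2 fold change 1.07, adjusted p = 3.19e-05). Under the other scalings this list had 10 to 15 higher and 0 to 1 lower calls.

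Genes that TGF-beta is known to induce in T cells moved both ways, 4 higher and 2 lower of 9 tested, with a median of 0.21. Among the higher genes, Gpr15 (0.110 to 0.813 FPKM) and Cdkn1a (0.614 to 0.979 FPKM) were under 1 FPKM in every RFP- library. They passed the filter only through RFP+ libraries, where they were higher. Both calls were lost in at least 1 fit without a library (limma adjusted p up to 0.10 and 0.076). Itgae averaged 351 ± 17.9 FPKM in RFP+ and 564 ± 8.99 FPKM in RFP- cells (log2 fold change -0.68, limma adjusted p = 7.85e-05) and Itga1, the CD49a chain, 24.3 in RFP+ and 36.5 FPKM in RFP- cells (log2 fold change -0.57, adjusted p = 3.00e-04). All 4 markers found for the labelled cells, Itgae among them, were lower in RFP+ cells by similar amounts, with ratios to the RFP- means of 0.623 for Itgae, 0.628 for Cd8a, 0.680 for Cd3g and 0.716 for Cd3e (limma adjusted p at most 6.45e-04). Ccr9, a gut homing receptor, averaged 27.9 in RFP+ and 14.8 FPKM in RFP- cells (log2 fold change 0.87, adjusted p = 1.25e-04), and Ldlrad4, given above, also belongs to this list. Of 10 tested genes that TGF-beta is known to repress 2 were higher (Klf2 and Myc) and 8 lower in RFP+ cells, with a median of -0.88. Of all genes tested 16.4% were called higher and 21.6% lower. Prf1, the perforin gene, averaged 4.31 ± 1.44 in RFP+ and 42.6 ± 3.56 FPKM in RFP- cells (log2 fold change -3.07, adjusted p = 6.55e-06) and Zbtb7b, the ThPOK gene, 4.64 in RFP+ and 9.16 FPKM in RFP- cells (log2 fold change -0.85, adjusted p = 2.03e-05). The granzyme genes Gzma (-7.07) and Gzmb (-5.31) fell furthest in log2 fold change. Under the other scalings the lower calls of the repressed list were 5 to 6.

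Markers of the labelled cells summed to 1299 to 1405 FPKM in RFP+ and 2043 to 2120 FPKM in RFP- libraries. Of 16 epithelial markers 11 were tested, with 1 higher (Cdh1) and 2 lower (Epcam, Krt18). Krt18 was under 1 FPKM in every RFP+ library (0.287 to 0.697 FPKM) and passed the filter only through RFP- libraries. The summed level ran from 114 to 135 FPKM in RFP+ and from 111 to 234 FPKM in RFP- libraries. By mean, its largest parts were Cdh1 and Epcam. Cdh1 averaged 61.3 in RFP+ and 46.2 FPKM in RFP- cells, and Epcam 31.8 in RFP+ and 46.7 FPKM in RFP- cells. Each other epithelial marker averaged at most 9.20 FPKM in RFP+ and 22.0 FPKM in RFP- cells. The 3 myeloid markers found summed to 0.103 to 0.878 FPKM in RFP+ and 1.37 to 1.71 FPKM in RFP- libraries, the 3 of stroma, endothelium and platelets to 1.94 to 2.52 FPKM in RFP+ and 6.52 to 6.79 FPKM in RFP- libraries, and the 4 of B and plasma cells to 13.8 to 15.02 FPKM in RFP+ and 17.1 to 19.9 FPKM in RFP- libraries. The 3 CD4 T cell markers overlapped (15.7 to 27.98 FPKM in RFP+ and 26.8 to 53.7 FPKM in RFP- libraries), and no marker found was at 0 in every library. The part of these cells in the Smad3, Smad7 and Ski differences was not tested.

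The libraries titled LI have no group and were set beside the sorted cells as values only. Smad3 was at 15.8 and 17.3 FPKM, above all 6 sorted libraries, and the Smad3 level divided by the Smad2 level was 2.23 and 2.36. Smad7 was at 79.8 and 76.0, Ski at 38.6 and 41.7, Tgfbr2 at 50.7 and 51.7 and Smad4 at 24.6 and 23.2 FPKM, also above all 6 sorted libraries. The other 4 members lay within or across the sorted range, Tgfb1 at 32.7 and 33.8, Tgfbr1 at 15.2 and 14.1, Smad2 at 7.07 and 7.33 and Skil at 45.4 and 47.6 FPKM. Smad3 and Smad7 thus lay on the side of the RFP+ cells and beyond them, and Ski on the side of the RFP- cells and beyond them. These libraries also had 17.9 and 19.1 FPKM of Bcl6, 0.728 and 0.660 of Prdm1, 261 and 272 of Tcf7, and less Cd8a (297 and 281 FPKM) than any sorted library, whose lowest value was 542. Cd160, a gene of the sort, was at 135 and 126 FPKM, below RFP+ libraries (231 to 242) and above RFP- libraries (61.9 to 69.8).

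In Prdm1 knockout cells, Smad3 was the single member called, and it rose. The fit tested 10969 genes, of which 6.84% differed (4.29% higher and 2.54% lower in the knockout) and 1 of the 9 members was called. At an unadjusted limma p under 0.05 the fit held 2 members (Smad3 and Ski) and 2260 genes. Values here are reads divided by a size factor of the library (scaled reads), without gene length, so levels of different genes are not compared. Smad3 stood at 1513 and 1526 scaled reads in Prdm1 knockout libraries, against 814 and 646 in littermates. The knockout libraries were nearly equal and both lay well above both littermates. The means were 1519 ± 9.16 scaled reads in knockout cells and 730.2 ± 119 in littermate cells (SD, n = 2 each), a ratio of 2.08, and limma gave a log2 fold change of 1.07 ± 0.14 (SE, adjusted p = 0.0093). Smad3 passed in all 14 alternatives, from 0.90 to 1.23, at a highest adjusted p of 0.033, edgeR and DESeq2 on recovered reads among them.

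The ligand and receptor genes gave no call. Tgfb1 was at 5266 and 4349.9 scaled reads in knockout and 4963 and 5336 in littermate libraries, and Tgfbr2 at 13579.9 and 11315 in knockout and 15539 and 13323 in littermate libraries, both overlapping. Tgfbr1 was at 3941 and 3886 in knockout libraries, against 4204 and 4491 in littermates. Smad2 was at 2578 and 2430.1 in knockout libraries, against 2827 and 2765 in littermates. Neither overlapped, but both differences were small (log2 fold changes -0.15 and -0.16, limma adjusted p = 0.41 and 0.39). Smad4 was at 4985 and 4869.6 scaled reads in knockout libraries, against 5402 and 4885 in littermates, and overlapped.

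Smad7 was at 9068 and 8412 scaled reads in Prdm1 knockout libraries, against 9148 and 8339 in littermates, so the groups interleaved (95% interval of the log2 fold change -0.25 to 0.25). Ski was at 5663 and 4608 in knockout libraries, against 7357 and 6256 in littermates. Skil was at 15216 and 12544 in knockout libraries, against 19212 and 15378 in littermates. Both corepressors were lower in both knockout libraries without passing the test (log2 fold changes -0.41 and -0.32, limma adjusted p = 0.15 and 0.31). Without littermate library 2 the Ski log2 fold change was -0.53 at an adjusted p of 0.0495. Over the 8 members that were not called the 95% intervals ran from -0.74 to 0.25. In 5 of 9 members the groups did not overlap, against 52.4% of all genes.

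Of the other pathway genes in the Prdm1 experiment those called were few and mostly higher. Of 7 tested ligand and activation genes 2 were higher, Thbs1, whose product can activate latent TGF-beta (493 ± 265 scaled reads in knockout and 79.4 ± 9.81 in littermate cells, log2 fold change 2.52, limma adjusted p = 0.014), and Itgb8, which pairs with the αv integrin chain (191 ± 14.5 in knockout and 75.6 ± 2.98 in littermate cells, log2 fold change 1.33, adjusted p = 0.025). Of 7 tested receptor genes the activin receptor gene Acvr2b was higher (307 ± 76.0 in knockout and 119 ± 32.0 in littermate cells, log2 fold change 1.37, limma adjusted p = 0.038). Of 26 Smad regulators 2 were higher, Hipk2 (4301 ± 363 in knockout and 2572 ± 255 in littermate cells, log2 fold change 0.74, limma adjusted p = 0.015) and Ldlrad4 (10945 ± 972 in knockout and 7713 ± 293 in littermate cells, log2 fold change 0.50, adjusted p = 0.043). The calls of Itgb8 and Acvr2b were lost in at least 1 scaling and those of Itgb8, Acvr2b and Ldlrad4 in at least 1 fit without a library. In at least 1 other alternative setting 0 Smad regulators were called higher, so Hipk2 was not called there either.

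Of 11 tested genes that TGF-beta induces 3 were higher in Prdm1 knockout cells, Ldlrad4 with Gpr15 and Tgfbi, both of which were lost in at least 1 scaling. Of 11 tested genes that it represses 4 were lower and 1, Myc, higher, and the Myc call was lost in at least 1 alternative setting. The log2 fold changes of the lower genes were -4.68 for Gzma, -3.77 for Gzmb, -2.86 for Prf1 and -1.02 for Fasl, with limma adjusted p between 0.0025 and 0.0039. Both granzyme genes and Prf1 were also lower in RFP+ than in RFP- cells, as given above.

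Markers moved with the Prdm1 groups. The 4 found for the labelled cells summed to 216938 and 228185 scaled reads in knockout libraries, against 270774 and 284428 in littermates, with a median log2 fold change of -0.33, and limma called none, with 2 (Cd3e and Cd3g) at an unadjusted p under 0.05. Of 16 epithelial markers 10 were higher and 0 lower in the knockout, and their sum was 24032 and 29016 scaled reads in knockout libraries, against 17445 and 17317 in littermates. Keratin genes were among them (Krt8 at a mean of 1012 in knockout and 224 in littermate cells), while Epcam was at a mean of 2787 in knockout and 2761 in littermate cells. The 5 myeloid markers found summed to 192 and 309 scaled reads in knockout libraries, against 773 and 632 in littermates, most of it Itgam in littermates (mean 58.9 in knockout and 644 in littermate cells). The 3 CD4 T cell markers summed to 3300.2 and 2168 in knockout libraries, against 4721 and 3546 in littermates. Stroma, endothelium and platelet markers and B and plasma cell markers overlapped in their sums. No marker found was at 0 in every library, and the part of these cells in the Smad3 rise was not tested.

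In Tcf7 knockout cells, Smad3 was again the single member called, and it fell. The fit tested 15210 genes, of which 2.72% differed (1.49% higher and 1.23% lower in the knockout), and 1 of 9 members was called. At an unadjusted limma p under 0.05 the fit held 6 members (Tgfbr1, Smad2, Smad3, Smad7, Ski and Skil) and 1909 genes. Smad3 stood at 814 and 688 scaled reads in Tcf7 knockout libraries, against 1002 and 1063 in littermates, without overlap. The means were 751 ± 89.0 scaled reads in knockout cells and 1033 ± 43.3 in littermate cells (SD, n = 2 each), a ratio of 0.727, and limma gave a log2 fold change of -0.46 ± 0.11 (SE, adjusted p = 0.038). It passed in 9 of 12 alternatives, with a range of -0.58 to -0.34. It missed the threshold with quantile normalization (adjusted p = 0.052), without the mean-variance trend (0.29) and without knockout library 2 (log2 fold change -0.34, adjusted p = 0.39).

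Smad7 was at 5989.6 and 6017 scaled reads in Tcf7 knockout libraries, against 6676 and 7006 in littermates. Both knockout libraries were lower than both littermates, and the difference did not pass (log2 fold change -0.19, 95% interval -0.30 to -0.073, limma adjusted p = 0.098). Without littermate library 1 Smad7 was at -0.22 with an adjusted p of 0.020. Ski was at 6996 and 7830.2 in knockout libraries, against 6774 and 6361 in littermates. Skil was at 13644 and 13805 in knockout libraries, against 12505 and 12543 in littermates. Both lay higher in both knockout libraries by little (log2 fold changes 0.17 and 0.13, limma adjusted p = 0.23 and 0.22), and Ski passed without littermate library 1 (log2 fold change 0.22, adjusted p = 0.020).

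Tgfb1 (5294 and 5063 scaled reads in knockout and 5178 and 5101 in littermate libraries), Tgfbr2 (14203 and 14786 in knockout and 13533 and 14228 in littermate libraries) and Smad4 (5263 and 5206 in knockout and 5496 and 5216 in littermate libraries) were close, and all 3 overlapped between the groups. Tgfbr1 was at 5139.7 and 5425 in knockout libraries, against 4818 and 4794 in littermates. Smad2 was at 3045 and 3016 in knockout libraries, against 2747 and 2625 in littermates. Neither passed (log2 fold changes 0.14 and 0.17, limma adjusted p = 0.32 and 0.23). The intervals of the 8 members not called ran from -0.30 to 0.31, so changes beyond that size lie outside them. In 6 of 9 members the groups did not overlap, against 41.6% of all genes.

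**Figure D2:**
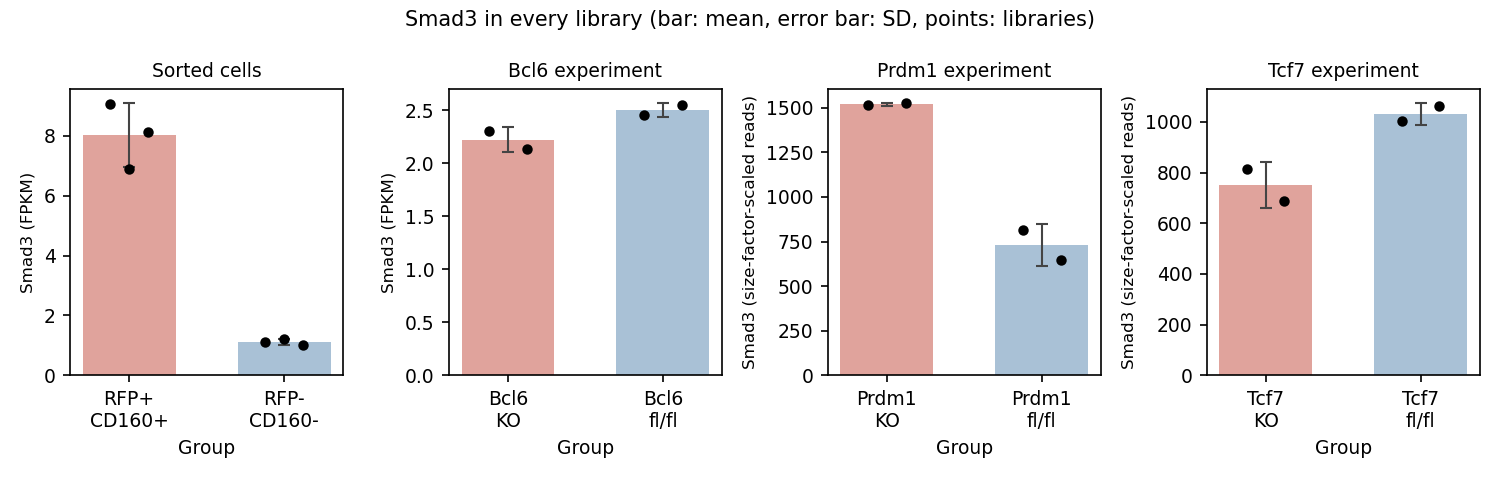
Smad3 in every library of the 4 comparisons, in FPKM (sorted cells and Bcl6 experiment) or size-factor-scaled reads (Prdm1 and Tcf7 experiments), with bars at the mean, error bars at 1 SD and a point per library. The scales differ between panels. Smad3 is higher in RFP+ and in Prdm1 knockout cells and lower in Tcf7 knockout cells, and in the Bcl6 experiment it did not pass the test.

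Among the other pathway genes of the Tcf7 experiment, 4 of 7 tested ligand and activation genes were higher in the knockout. Thbs1 averaged 266 ± 51.6 scaled reads in knockout and 50.7 ± 27.9 in littermate cells (log2 fold change 2.47, limma adjusted p = 0.0011), and Tgfb3 7854 ± 85.5 in knockout and 6681 ± 219 in littermate cells (log2 fold change 0.23, adjusted p = 0.028). Ltbp4 (log2 fold change 0.51, limma adjusted p = 0.027) and Itgav (log2 fold change 0.24, adjusted p = 0.045) were higher too. The calls of Tgfb3, Ltbp4 and Itgav were lost in at least 1 fit without a library. In at least 1 other alternative setting 0 ligand and activation genes were called higher, so Thbs1 was not called there either. The mean of Thbs1 in littermate cells was close to the level asked of a tested gene. Tgfbr3 was the single receptor gene of 7 that was lower (826 ± 144 in knockout and 1145 ± 32.4 in littermate cells, log2 fold change -0.48, limma adjusted p = 0.044, up to 0.47 without a library). None of 26 tested Smad regulators was called by limma, with 4 at an unadjusted p under 0.05. Of 11 induced genes Ccr9 was lower (7869.5 ± 187 in knockout and 9427 ± 149.6 in littermate cells, log2 fold change -0.26, limma adjusted p = 0.011, up to 0.17 without a library). Of 12 repressed genes Gzmb, Gzma and Fasl were higher at log2 fold changes of 0.54, 0.52 and 0.30, with limma adjusted p between 5.58e-05 and 0.0031. Both granzymes were at a log2 fold change of 0 under quantile normalization. That setting gives equal values to genes holding the same ranks in both groups, so it could not show a difference in them. The Fasl call was lost in 1 or more fits without a library (adjusted p up to 0.057).

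Several marker lists stood higher in the Tcf7 knockout, though not all. Of 16 epithelial markers 4 were higher and 0 lower (Muc2, Lyz1, Olfm4 and Fabp1), and their sum was 35477 and 34938 scaled reads in knockout libraries, against 29212 and 28929 in littermates. Epcam averaged 5236 in knockout and 4525 in littermate cells. The 5 myeloid markers found summed to 8242 and 8041 in knockout libraries, against 5133 and 5377 in littermates, nearly all Itgam (7984 in knockout and 5151 in littermate cells), while Lyz2 (139 in knockout and 82.7 in littermate cells) and Csf1r (6.23 in knockout and 9.02 in littermate cells) were low. The 3 CD4 T cell markers summed to 1954 and 1946 in knockout libraries, against 1286 and 1138 in littermates, with Ctla4 called higher (log2 fold change 0.69, limma adjusted p = 3.43e-04). B and plasma cell markers summed to 1327 and 1312 in knockout libraries, against 1187 and 1089 in littermates. Those of stroma, endothelium and platelets overlapped, at 1261 and 1155 in knockout libraries and 1195 and 1273 in littermates. The markers of the labelled cells summed to 430610 and 433647 in knockout libraries, against 413398 and 407685 in littermates. Cd8b1, the marker of CD8αβ cells, was higher in both knockout libraries (log2 fold change 0.62). Its limma p was under 0.05 unadjusted, and it was not called. No marker found was at 0 in every library, and their part in the Smad3 fall was not tested.

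In Bcl6 knockout cells, none of the 9 members was called in the limma fit over 9573 genes (1 of them, Tgfb1, had an unadjusted p under 0.05, and no other tool was run), of which 0.418% differed (0.0313% higher and 0.387% lower in the knockout). At an unadjusted p under 0.05 the fit held 559 genes. Knockout library 2 stood apart. Its 7 myeloid markers summed to 94.8 FPKM, against 17.9 in knockout library 1 and 11.6 and 18.9 in littermates, and it held the highest level of 6 members. Without knockout library 1, when the knockout is read from library 2 alone, 5 members and 1570 genes passed. Without knockout library 2, 0 members and 198 genes did. In both fits the lone library is assumed to vary like the littermates.

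Smad3 was at 2.31 and 2.14 FPKM in Bcl6 knockout libraries, against 2.46 and 2.55 FPKM in littermates. Both knockout libraries were slightly lower, by less than the test could call (log2 fold change -0.12, 95% interval -0.54 to 0.30, limma adjusted p = 0.96). Tgfb1 was at 2.67 and 2.46 FPKM in knockout libraries, against 4.02 and 3.98 FPKM in littermates. The littermates were nearly equal and both knockout libraries lay well below, yet the call was not made (log2 fold change -0.49 ± 0.18, SE, limma adjusted p = 0.73, lowest 0.081 over the alternatives). Smad2 was at 8.87 and 9.23 FPKM in knockout libraries, against 7.96 and 7.20 FPKM in littermates, without overlap (log2 fold change 0.23, limma adjusted p = 0.95).

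In the remaining members the knockout libraries differed from each other. Smad4 was at 4.55 and 8.87 FPKM in knockout libraries, against 5.21 and 3.80 FPKM in littermates. Ski was at 7.72 and 12.3 FPKM in knockout libraries, against 6.87 and 7.09 FPKM in littermates, and Smad7 at 8.91 and 11.4 FPKM in knockout libraries, against 8.02 and 7.10 FPKM in littermates. For all 3, knockout library 2 was the highest of the 4. Skil was at 19.3 and 35.8 FPKM in knockout libraries, against 27.0 and 20.2 FPKM in littermates. Tgfbr1 was at 6.34 and 8.90 FPKM in knockout libraries, against 8.76 and 6.25 FPKM in littermates, and Tgfbr2 at 31.2 and 23.5 FPKM in knockout libraries, against 33.0 and 32.1 FPKM in littermates. In each of these 6 genes the knockout libraries differed from each other by more than knockout library 1 differed from the nearest littermate. From library 2 alone Smad4 (log2 fold change 0.85), Ski (0.74), Skil (0.59) and Smad7 (0.54) passed as higher and Tgfbr2 (-0.45) as lower, and the part of the myeloid transcripts in these values was not tested. In 6 of 9 members the groups did not overlap, against 33% of all genes. By level, Smad3 was the lowest member in both groups, with means of 2.22 FPKM in knockout and 2.50 FPKM in littermate cells, and the Smad3 level divided by the Smad2 level was 0.260 and 0.232 in knockout libraries, against 0.309 and 0.355 in littermates.

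**Figure D3:**
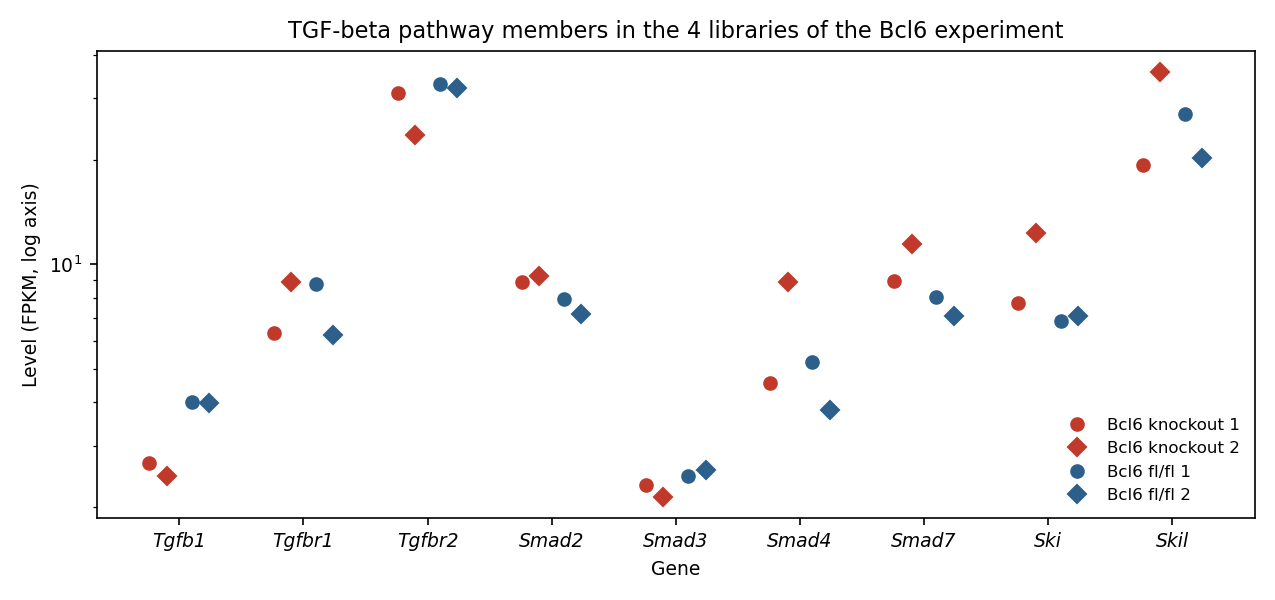
FPKM of the 9 members (log axis) in the 2 Bcl6 knockout libraries (red) and the 2 Bcl6fl/fl littermate libraries (blue), with circles for library 1 and diamonds for library 2. Knockout library 2 lies apart from the other 3 in Smad4 (8.87 FPKM), Ski (12.3 FPKM) and Tgfbr2 (23.5 FPKM).

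No gene of the ligand, receptor or Smad regulator lists was called by limma in the Bcl6 experiment, with 4, 4 and 25 tested and 0, 1 and 1 at an unadjusted p under 0.05. Of 9 tested genes that TGF-beta induces 1 was lower, Cdkn1a, a cell cycle inhibitor (4.53 ± 0.338 FPKM in knockout and 15.2 ± 2.95 FPKM in littermate cells, log2 fold change -1.54, limma adjusted p = 0.011), and it passed in every scaling and every fit without a library. Of 12 repressed genes 0 were called by limma, with 5 at an unadjusted p under 0.05. Epithelial markers summed to 289 and 254 FPKM in knockout libraries, against 290.2 and 320.2 in littermates, and 1 of 16, the Paneth cell gene Lyz1, was lower.

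**Figure D4:**
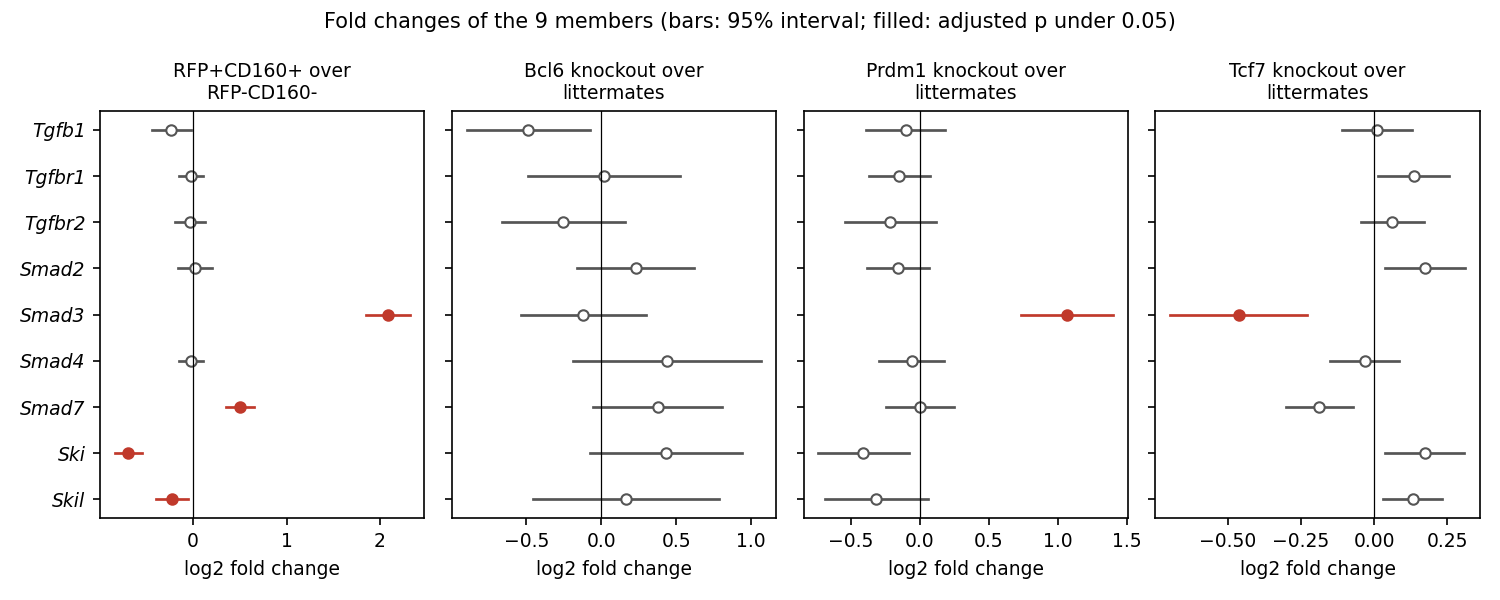
Log2 fold changes of the 9 members with 95% intervals in the 4 comparisons, each over its own controls, with filled red points where the limma adjusted p was under 0.05. Smad3 is called in 3 of the 4 panels (2.09, 1.07 and -0.46), and the horizontal scales differ between panels.

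Side by side, the log2 fold changes of Smad3 were 2.09 in RFP+ cells, -0.12 in Bcl6 knockout cells, 1.07 in Prdm1 knockout cells and -0.46 in Tcf7 knockout cells. Smad7 had log2 fold changes of 0.50 in RFP+ cells, 0.38 in Bcl6 knockout cells, -5.35e-05 in Prdm1 knockout cells and -0.19 in Tcf7 knockout cells. Ski had -0.69 in RFP+ cells, 0.43 in Bcl6 knockout cells, -0.41 in Prdm1 knockout cells and 0.17 in Tcf7 knockout cells, and Skil had -0.23, 0.16, -0.32 and 0.13 in those 4 comparisons. The 4 comparisons share no library. The differences between them were not tested, since they were measured in separate tables and, in part, in different units.

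The genes whose 4 log2 fold changes were nearest to those of a member were found by Euclidean distance among 8878 genes tested in all 4 comparisons. For Smad3, whose own values lay 2.39 from the origin, these were Slc27a6, a fatty acid transport gene (distance 0.387), Klrk1, the NKG2D gene (0.409), and Cd160 (0.431), the gene by which the populations were sorted. Klrk1 had log2 fold changes of 2.20, -0.35, 1.38 and -0.42 in RFP+, Bcl6, Prdm1 and Tcf7 knockout cells, and Cd160 1.83, -0.46, 1.02 and -0.41. For Smad7 the nearest were Kat2b (0.137), Zscan26 (0.159) and Tmem243 (0.162), and for Ski they were Sdf2l1 (0.0944), Rab19 (0.109) and Tshz1 (0.112). For Tgfb1 the nearest was Nfil3 (0.0471), for Skil D8Ertd738e (0.0420), for Tgfbr1 Tmem39b (0.0333), for Tgfbr2 Sp3 (0.0445), for Smad2 Naa20 (0.0470) and for Smad4 Ranbp9 (0.0515). The members other than Smad3 had smaller fold changes, 0.205 (Tgfbr1) to 0.931 (Ski) from the origin, and their distances are read against that. Both rankings and distances rest on Bcl6 values that turn on 1 library. Without knockout library 1 or 2 the Bcl6 log2 fold change was 0.85 or 0.025 for Smad4, 0.74 or 0.13 for Ski and 0.59 or -0.26 for Skil, changes larger than the distances given for these genes.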

How the data were processed

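Per the submitters' processing notes, the build was mm10 and the tools were DESeq2, RSEM, featureCounts, Subread, Bowtie2 and Trim Galore 0.4.4, with no role or order given. The authors deposited FPKM for the sorted, LI and Bcl6 libraries, and a size-factor-scaled read signal for the Prdm1 and Tcf7 libraries, as found from the values: 96.2 to 97.6% of low FPKM values, times gene length, and 100% of signal values were whole reads (tolerances 0.02 and 0.01). Each experiment was fitted alone with limma 3.58.1 (R 4.3.3, lmFit, eBayes with trend) on log2(value + 1), two-sided, with Benjamini-Hochberg adjustment over all genes with at least 1 FPKM, or a signal of 50, in at least as many libraries as 1 group holds. All 9 members passed that filter in every experiment. A call is an adjusted p under 0.05. For Prdm1, edgeR 4.0.16 and DESeq2 1.42.0 were also run on the recovered reads, and the limma fits were checked on simulated data. Pathway genes are named by the smallest p, up to 4 called per list and comparison, and Klf2, Myc and single markers after their values were seen. The members, lists and tests were chosen with earlier results of these data known. Same-numbered libraries of different groups were not taken as pairs, since the labels do not say what a number shares. RefSeq sequences are from GRCm38.p6.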

Additional observations from a re-analysis of the deposited data

Results flagged for a closer look

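The libraries titled LI enter no comparison, and in 5 of the 9 members both lay above all 6 sorted libraries. The lower of their values was 15.8 FPKM for Smad3, 76 FPKM for Smad7, 38.6 FPKM for Ski, 50.7 FPKM for Tgfbr2 and 23.2 FPKM for Smad4. For Smad4 the margin was small, since the highest sorted library had 22.9 FPKM. The differences were not tested, because the labels put these libraries in no group. Their depth was 30.03 and 22.5 in units of 1000000 reads, above that of the sorted libraries.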

How the results depend on the processing

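Smad3, Smad7 and Ski in RFP+ cells and Smad3 in Prdm1 knockout cells kept their direction and their call under every alternative run, and Smad3 in Tcf7 knockout cells lost its call in 3 of 12. Some signs turned. With library totals rescaled, quantile normalization and centring on well expressed genes, the log2 fold changes in RFP+ cells were 0.12, 0.023 and 0.043 for Tgfbr1, 0.12, 0.057 and 0.034 for Tgfbr2 and 0.13, 0.051 and 0.045 for Smad4. In Bcl6 knockout cells Tgfbr1 was at -0.012, -0.0015 and -0.0099, and in Prdm1 knockout cells Smad4 was at 0.016, 0.021 and 0.018 and Smad7 at 0.076, 0.064 and 0.078 (0.039 with edgeR, 0.034 with DESeq2). Tgfb1 was at -0.00077 in Tcf7 knockout cells with totals rescaled.

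Calls of all genes and of members depended on the libraries. Leaving out 1 library gave 2685 to 3365 genes and 3 to 4 members in the sorted cells, 40 to 1570 genes and 0 to 5 members for Bcl6, 595 to 1183 genes and 1 to 2 members for Prdm1, and 218 to 748 genes and 0 to 3 members for Tcf7. The log2 fold changes then spanned 0 for Smad2 (-0.040 to 0.074), Tgfbr2 (-0.090 to 0.017) and Smad4 (-0.058 to 0.015) in RFP+ cells and for Tgfbr1 (-0.20 to 0.23) and Skil (-0.26 to 0.59) in Bcl6 knockout cells. They also did for Tgfb1 (-0.24 to 0.033), Smad7 (-0.067 to 0.067) and Smad4 (-0.13 to 0.012) in Prdm1 and for Tgfb1 (-0.022 to 0.043) and Smad4 (-0.070 to 0.0051) in Tcf7 knockout cells. A stricter filter for Prdm1 left 422 genes called and DESeq2 1184. For Tcf7, quantile normalization left 0 members called, and the fit without trend 0 members and 9 genes. The causes were not tested.

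With the replicate number as a block, Prdm1 had 3 members (Ski and Skil gained) and 2386 genes called, Tcf7 4 members (Smad7, Ski and Skil gained) and 977 genes, and Bcl6 78 genes. Same-numbered deviations correlated at 0.53 in the Prdm1, 0.064 in the Tcf7 and -0.46 in the Bcl6 experiment, and at -0.23, -0.00027 and -0.33 in the sorted cells, where no library correlated best with its own number. A crossed pairing for Bcl6, chosen after seeing the data, gave 452 genes and 0 members. edgeR and DESeq2 were not run for Tcf7, and a filter of 5 FPKM left Smad3 and Tgfb1 untested for Bcl6.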
